A study of Mus musculus with 10 samples.

Results

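The genes described here serve protein folding in the endoplasmic reticulum (ER) and the unfolded protein response of mouse intestinal crypt cells. A list of 35 symbols was given, and each gene was represented by the probe set of that sole symbol with the highest mean over the arrays. A probe set was found for 34 of them, out of 22180 genes measured. Pdia4 shared its probe set with another symbol and was not analysed here. Expression was read on 10 Affymetrix MoGene 2.0 ST arrays, and values are log2 intensities, so that a difference of 1 is a doubling. The Flattop group held 4 arrays of crypt cells from FltpT2AiCre mice crossed with Gt(ROSA)26mTmG, on a mixed background of C57BL/6J, CD1 and 129/SvJ. The Lgr5-high group held 6 arrays of stem cells with high Lgr5 and GFP from Lgr5-EGFP-IRES-creERT2 mice of strain C57BL/6J. All mice were 3 to 6 months old. In the first cross the Cre follows the Flattop gene (Cfap126), and its reporter also marks the descendants of cells in which the Cre was once active. Group, genotype, reporter and strain coincide and cannot be told apart. The labels do not say which reporter colour was sorted, how the gates were set, whether animals were pooled, or whether replicates came from separate animals. The p-values therefore measure only the spread between these arrays, which may be technical.

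Secreted and membrane proteins enter the ER through the Sec61 channel, where signal peptides are removed and chaperones and disulphide isomerases fold the chains. Folded cargo leaves in COPII-coated vesicles, and misfolded chains are carried back to the cytosol and degraded. When unfolded chains accumulate, the sensors IRE1, PERK and ATF6 start the unfolded protein response, which raises the transcription of these same genes through XBP1, ATF6 and ATF4. In the intestine, Paneth and goblet cells carry a large ER for their antimicrobial proteins and mucins, and XBP1 is known to be needed for Paneth cells.

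Pairs of Flattop arrays correlated at 0.907 to 0.969 over all genes, pairs of Lgr5-high arrays at 0.905 to 0.957, and pairs across groups at 0.870 to 0.955. Neither gene that names a group separated them. Lgr5 read 6.44 to 9.65 in Flattop and 8.99 to 9.90 in Lgr5-high arrays (limma adjusted p = 0.533), with Flattop replicate 3 the lowest. Cfap126 read 4.67 and 4.93 in Flattop replicates 1 and 2, within the Lgr5-high range of 4.56 to 5.59, and 6.20 and 5.89 in replicates 3 and 4 (limma adjusted p = 0.678). All 10 markers of T cells and intraepithelial lymphocytes were called as higher in Flattop, where 0.902% of all genes were. They averaged 8.74 to 11.17 per array against 4.43 to 4.88, and the label of crypt cells does not include such cells. Flattop replicate 3 and Lgr5-high replicate 2 correlated least with the other arrays of their groups.

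Of the 34 members, 4 were higher in the Flattop arrays in limma at an adjusted p under 0.05, where 0.902% of all genes were, and 0 were lower (0.0135% of all genes). These were Sec24d, which sorts cargo into COPII vesicles, the gut form of the IRE1 sensor (Ern2) and the cochaperones Dnajc3 and Dnajb11. Differences were positive in 29 of 34 members, against 38.5% of all genes, and the median difference was 0.50, against -0.06 over all genes. Without adjustment, 14 members had a p under 0.05 with Flattop higher (5.98% of all genes) and 0 with Flattop lower (3.80%). The groups did not overlap, with Flattop higher, in 6 members (2.01% of all genes), namely the 4 called genes and, by less than the 2 decimals shown, Hspa5 and Edem1. No member stood apart in the other direction (0.974% of all genes). All 34 members lay above the 40th percentile of mean intensity. Among the 13308 genes above it, 47.7% had a positive difference and 8.42% were higher at an unadjusted p under 0.05, against 29 and 14 of the 34 members. Without those least correlated arrays, 33 differences were positive, the median was 0.55 and 1 member was called. With any 1 array left out, 1 to 3 members were called and 26 to 33 differences were positive. In bulk samples, more cells of a type and more RNA per cell cannot be told apart.

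**Figure D1:**
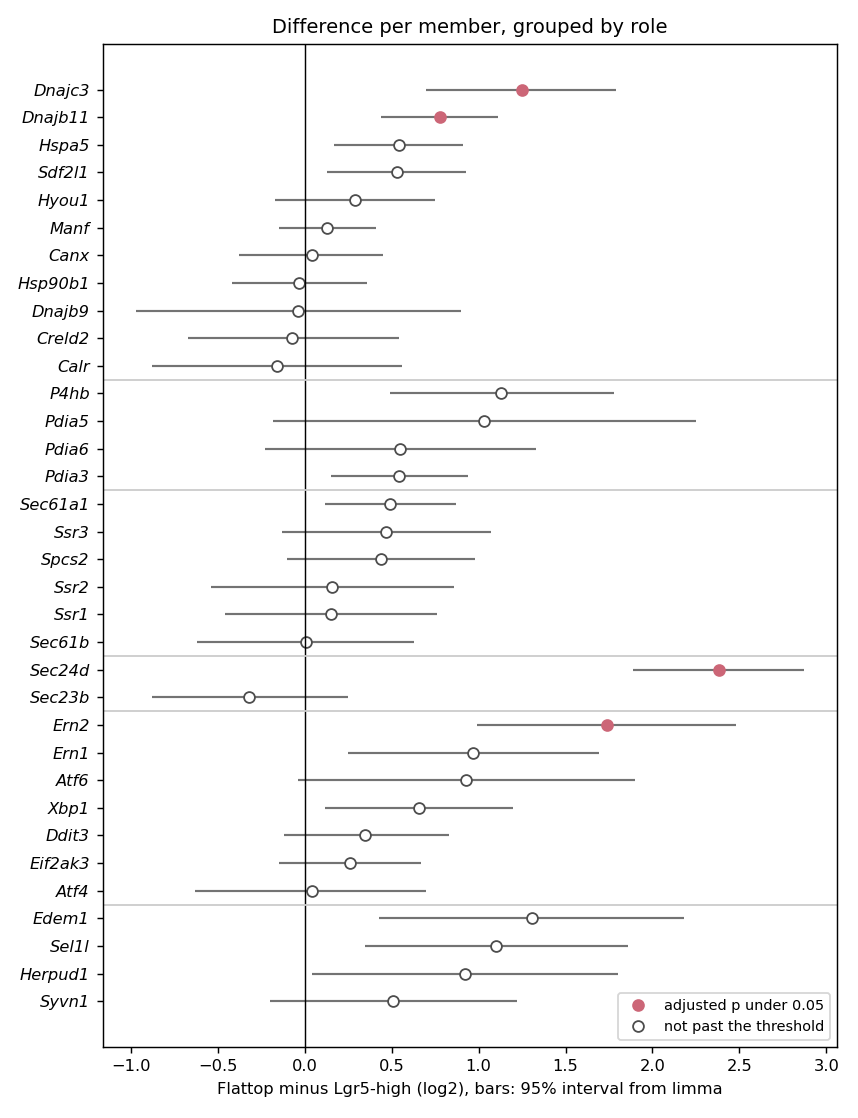
Flattop minus Lgr5-high difference for each of the 34 members on the log2 scale, with its 95% interval from limma, grouped by role and ordered by size within a role. Filled points mark the 4 members at an adjusted p under 0.05. All isomerases, translocon genes, sensors and degradation genes lie to the right of 0, and in each of these roles some intervals reach below 0.

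RefSeq promoter windows on GRCm38.p6, from 250 bases before to 50 after the start site, matched 28 of the 34 members. They are shown because the members are known as a group with shared promoter elements, and because each of the 3 called genes with a window held 1 of these elements. No window was matched for Ern2, Atf6, Hyou1, Manf, Sec61a1 and Ssr2. The ER stress element ERSE was searched on both strands as CCAAT and CCACG with 9 free bases between them. It was found in 8 of 28 members, against 0.119% of 32851 windows of all genes. The matches follow on the strand of the motif, with the fixed letters in capitals, and Hsp90b1 held 2 of them.

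Hspa5: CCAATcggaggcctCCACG
Hsp90b1: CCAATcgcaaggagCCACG
Hsp90b1: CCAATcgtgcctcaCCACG
Dnajc3: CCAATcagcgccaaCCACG
Canx: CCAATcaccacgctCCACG
Calr: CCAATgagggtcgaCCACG
Creld2: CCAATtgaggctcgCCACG
Pdia6: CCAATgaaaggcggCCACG
Syvn1: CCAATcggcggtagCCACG

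The shorter element ERSE-II, searched on both strands as ATTGG and CCACG with 1 free base between them, was in Dnajb11 and Herpud1, against 0.0365% of all windows. Its capitals again mark the fixed letters.

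Dnajb11: ATTGGcCCACG
Herpud1: ATTGGgCCACG

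The element UPRE, bound by XBP1 and ATF6 and searched on both strands as TGACGTGG, was in Sec24d alone among the 28 members, against 0.676% of all windows. The amino acid response element that ATF4 binds, searched likewise as TGATGNAAN, was in Herpud1 alone, against 3.95% of all windows. In all, 11 members held an ERSE, ERSE-II or UPRE, where 0.822% of all windows did. Among these 11 the median difference between groups was 0.54 (range -0.16 to 2.38). Among the 17 members with a window but no match it was 0.47 (range -0.32 to 1.31). The chaperones Hsp90b1, Canx, Calr and Creld2 held an ERSE at differences between -0.16 and 0.04. A match describes letters in the window and does not show a site in use.

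The promoters of the 3 called genes are given from 220 bases before to 30 after the start site, all on the plus strand, with the fixed letters of the match in capitals. They lie at chr3:123267276-123267525 (Sec24d), chr14:118937712-118937961 (Dnajc3) and chr16:22857625-22857874 (Dnajb11). Counted from the start site, the match begins at base -26 in Sec24d, at base -105 in Dnajc3 and at base 8 in Dnajb11.

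Sec24d: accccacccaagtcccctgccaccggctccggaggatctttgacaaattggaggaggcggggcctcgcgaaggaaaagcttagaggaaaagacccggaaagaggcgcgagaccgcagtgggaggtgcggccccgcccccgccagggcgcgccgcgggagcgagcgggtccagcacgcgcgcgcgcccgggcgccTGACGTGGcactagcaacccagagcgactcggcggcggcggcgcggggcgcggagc
Dnajc3: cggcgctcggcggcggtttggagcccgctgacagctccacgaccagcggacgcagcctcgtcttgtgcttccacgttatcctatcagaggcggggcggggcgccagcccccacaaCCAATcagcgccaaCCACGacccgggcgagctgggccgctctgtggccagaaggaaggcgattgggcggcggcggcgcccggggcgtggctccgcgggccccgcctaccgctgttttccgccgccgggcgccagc
Dnajb11: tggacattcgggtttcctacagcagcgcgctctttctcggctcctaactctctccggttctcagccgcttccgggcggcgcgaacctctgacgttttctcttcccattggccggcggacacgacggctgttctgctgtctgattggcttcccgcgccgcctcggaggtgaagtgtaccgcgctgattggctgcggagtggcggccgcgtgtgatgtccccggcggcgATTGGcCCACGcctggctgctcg

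Over all genes 0.902% were called as higher, 38.5% had a positive difference and 5.98% were higher at an unadjusted p under 0.05. These shares stand beside each of the roles that follow. Among 11 chaperones and cochaperones, 2 rose, 7 differences were positive and the median was 0.13. Dnajc3, the cochaperone p58IPK that also restrains PERK, read 10.70, 10.15, 11.14 and 9.97 in Flattop replicates 1 to 4. In the Lgr5-high arrays it ran from 8.96 to 9.73 with a median of 9.17. All Flattop arrays lay above all Lgr5-high arrays, and the difference was 1.25 (SE 0.25, limma adjusted p = 0.0465). Dnajb11, the cochaperone ERdj3 that hands unfolded chains to BiP, read 8.99, 9.26, 9.01 and 8.87 in Flattop arrays. Its Lgr5-high values ran from 8.01 to 8.64 with a median of 8.24, again without overlap. It rose by 0.78 (SE 0.15, limma adjusted p = 0.0449), the smallest of the 4 called differences and the one with the smallest SE. Both calls lay close to the threshold. With 1 array left out, Dnajc3 passed only without Flattop replicate 4 or Lgr5-high replicate 4, over a limma adjusted p of 0.0371 to 0.117. Dnajb11 passed only without Lgr5-high replicate 5, over 0.0289 to 0.139.

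Hspa5, the central ER chaperone BiP, read 8.82, 8.66, 8.24 and 8.68 in Flattop arrays and 7.54 to 8.24 (median 8.16) in Lgr5-high arrays. Flattop replicate 3 and Lgr5-high replicate 3 were equal to 2 decimals. The difference of 0.54 (SE 0.17) did not pass (limma adjusted p = 0.266). Sdf2l1, a BiP partner, was at 0.53 (SE 0.18) and Hyou1, the large nucleotide exchange factor of BiP, at 0.29 (SE 0.21). The remaining chaperones lay near 0. The values were 0.13 for the secreted protector Manf, 0.04 for the lectin chaperone Canx and -0.16 for its soluble relative Calr. They were -0.03 for Hsp90b1 (GRP94), -0.04 for the BiP cochaperone Dnajb9 and -0.07 for the stress-induced Creld2. Intervals were wide for Dnajb9 (-0.97 to 0.90) and Calr (-0.88 to 0.56) and narrower for Hsp90b1 (-0.42 to 0.36) and Canx (-0.38 to 0.45). In Calr, Creld2 and Hsp90b1, Flattop replicate 3 was the lowest of all 10 arrays, at 8.69, 6.66 and 10.99.

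**Figure D2:**
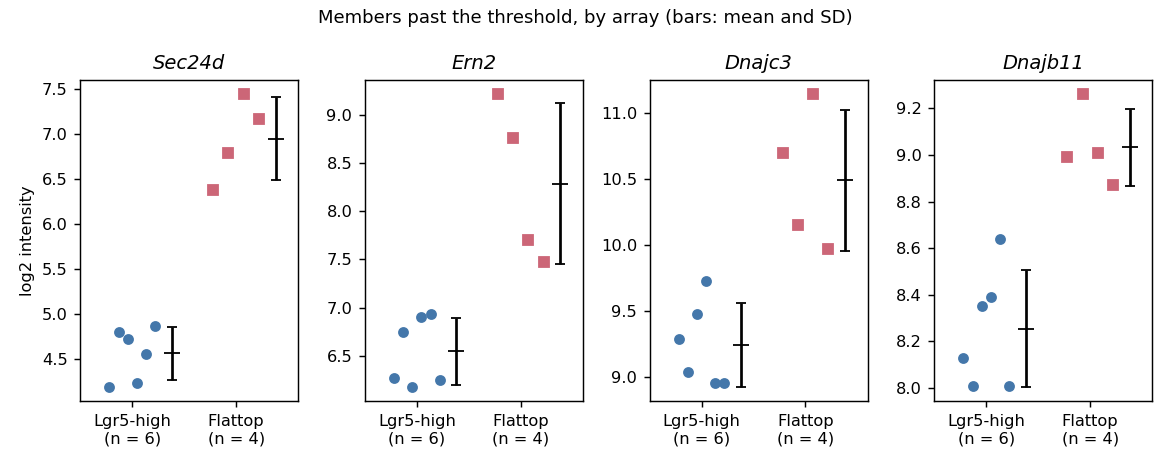
Log2 intensity of Sec24d, Ern2, Dnajc3 and Dnajb11 in each array, with the mean and SD of the group beside its points. In all 4 genes the lowest Flattop array lies above the highest Lgr5-high array, by the widest margin in Sec24d (6.38 against 4.87).

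The 4 measured disulphide isomerases had positive differences with a median of 0.79, and 0 passed in limma over all genes, while 2 were higher at an unadjusted p under 0.05. P4hb, the classical protein disulphide isomerase, read 10.17, 10.05, 9.23 and 9.83 in Flattop arrays. In Lgr5-high arrays it ran from 7.80 to 9.36 (median 8.80), so that only Flattop replicate 3 fell within that range. The difference was 1.13 (SE 0.29, limma adjusted p = 0.146). Pdia3, which folds glycoproteins together with Canx and Calr, read 11.05, 11.00, 10.58 and 10.51 against 9.95 to 10.66 (median 10.24). It differed by 0.54 (SE 0.18, limma adjusted p = 0.303). Pdia5 varied most among the Flattop arrays, at 8.32, 8.07, 5.24 and 6.65. Replicates 1 and 2 lay above the Lgr5-high range of 5.34 to 6.69, replicate 3 below it and replicate 4 within it. Its difference of 1.03 had an SE of 0.55 (limma adjusted p = 0.594). Pdia6, an isomerase that also acts on the IRE1 sensor, was at 0.55 (SE 0.35).

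The 6 translocon and signal peptidase genes had a median difference of 0.30, all positive, and 0 passed in limma, with 1 higher at an unadjusted p under 0.05. Sec61a1, the pore of the channel, read 9.19, 8.56, 8.73 and 8.46 in Flattop arrays and 7.98 to 8.51 (median 8.32) in Lgr5-high arrays. Only Flattop replicate 4 lay inside that range, and the difference was 0.49 (SE 0.17, limma adjusted p = 0.335). Spcs2, a signal peptidase subunit, read 9.13, 8.62, 8.07 and 8.77 against 7.56 to 8.69 (median 8.29), a difference of 0.44 (SE 0.25). For Ssr3, a subunit of the TRAP complex beside the channel, the Flattop values were 7.92, 7.62, 7.40 and 7.31 and the Lgr5-high range 6.19 to 7.58 (median 7.19). It differed by 0.47 (SE 0.27). Both genes overlapped between groups, and neither passed (limma adjusted p = 0.611 and 0.620). The TRAP subunits Ssr1 and Ssr2 were at 0.15 and 0.16, and the channel subunit Sec61b at 0.01. A second probe set gave 0.50 for Ssr1 and 0.08 for both Sec61b and Spcs2.

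The 2 COPII coat genes parted. Sec24d, the cargo adaptor, read 6.38, 6.79, 7.44 and 7.17 in Flattop arrays. In Lgr5-high arrays it ran from 4.19 to 4.87 with a median of 4.64, far below the lowest Flattop array. It rose by 2.38 (SE 0.22, 95% interval 1.89 to 2.87, limma adjusted p = 0.000405), a 5.20-fold difference and the largest among the 34 members. It was called in 20 of 21 alternative fits, among them all 10 that left out 1 array (adjusted p 0.000366 to 0.00234). The exception was the fit within titles 1 to 8, where the difference was 2.01 with an adjusted p of 0.0759 in limma. Its Lgr5-high mean of 4.56 lay under the median of all values (4.70), so the size of the fold is uncertain without detection calls. Sec23b, the coat partner that binds Sec24 proteins, read 5.68, 6.34, 5.63 and 5.99, within the Lgr5-high range of 5.44 to 6.81 (median 6.30). It had the lowest difference of all members, -0.32 (SE 0.26, limma adjusted p = 0.706).

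All 7 sensors and transcription factors had positive differences (median 0.66), and 1 rose. Ern2 encodes IRE1 beta, the form of the IRE1 sensor found in mucus-producing epithelia. It read 9.21, 8.76, 7.70 and 7.47 in Flattop arrays and 6.18 to 6.93 (median 6.51) in Lgr5-high arrays. Every Flattop array was above every Lgr5-high array, with replicates 1 and 2 the highest. The rise was 1.74 (SE 0.34, limma adjusted p = 0.0422), a 3.33-fold difference. It passed in 2 of the 10 fits that left out 1 array, those without Flattop replicates 3 or 4, and otherwise had adjusted p of 0.0683 to 0.135 in limma. Ern1, the widespread IRE1 alpha, read 7.94, 7.49, 6.15 and 6.48 against 5.72 to 6.47 (median 5.98). Flattop replicate 3 lay inside the Lgr5-high range, and the difference of 0.97 (SE 0.33) did not pass (limma adjusted p = 0.325).

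Xbp1, the factor activated when IRE1 splices its mRNA, read 8.09, 7.67, 7.27 and 7.29 in Flattop arrays and 6.36 to 7.60 (median 6.90) in Lgr5-high arrays. The difference was 0.66 (SE 0.25, limma adjusted p = 0.393), and Lgr5-high replicate 5 accounted for the overlap. The values do not show how much of the Xbp1 mRNA was spliced. Atf6, the sensor that is itself cut into a transcription factor, differed by 0.93 (SE 0.44), and Eif2ak3, which encodes PERK, by 0.26 (SE 0.18). The Lgr5-high mean of Eif2ak3 (4.66) lay under the median of all values (4.70). Downstream of PERK, Atf4 was at 0.04 (SE 0.30, 95% interval -0.63 to 0.70) and Ddit3, the death-linked factor CHOP, at 0.35 (SE 0.22). These mRNA values do not show the activity of PERK or the amount of ATF4 protein. The Flattop arrays agreed closely on Atf4, between 10.36 and 10.63, while the Lgr5-high arrays ran from 9.75 to 11.62.

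The 4 genes of ER-associated degradation had positive differences with a median of 1.01, and 0 passed in limma, with 3 higher at an unadjusted p under 0.05. Edem1, a lectin that directs misfolded glycoproteins to degradation, read 7.40, 7.32, 7.05 and 7.20 in Flattop arrays. In Lgr5-high arrays it spread from 4.68 to 7.05 (median 6.02), so that the groups met but did not cross. The difference was 1.31 (SE 0.40, limma adjusted p = 0.249), and a second probe set gave 0.41. Sel1l, the scaffold of the main retrotranslocation complex, read 7.95, 8.22, 7.27 and 7.70 against 5.69 to 7.38 (median 6.79). It differed by 1.10 (SE 0.34, limma adjusted p = 0.266), with only Flattop replicate 3 inside the other range. Herpud1, a stress-induced member of that complex, was steady in Flattop at 8.03, 7.79, 7.92 and 8.01. It was scattered in Lgr5-high arrays, from 5.77 to 8.27 (median 6.91), and differed by 0.92 (SE 0.40, limma adjusted p = 0.485). Syvn1, the ubiquitin ligase HRD1 of the complex, was at 0.51 (SE 0.32).

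**Figure D3:**
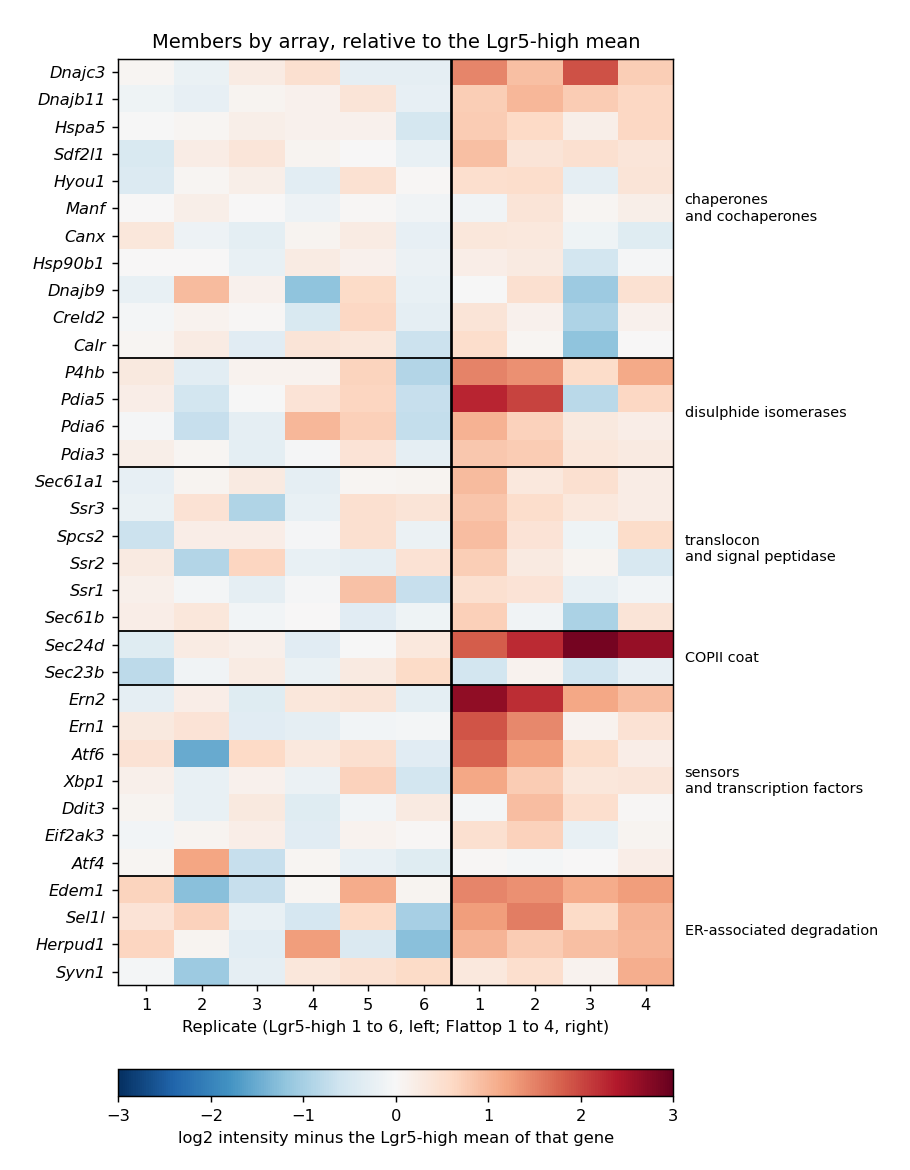
Log2 intensity of each member in each of the 10 arrays, shown as the difference from that member's Lgr5-high mean, with red above and blue below it. Flattop replicates 1 and 2 are red across most members, while replicate 3 is blue for Calr, Dnajb9, Creld2, Pdia5 and Sec61b and red for Sec24d.

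The Flattop arrays did not contribute equally. In replicate 1, 23 of 34 members lay above every Lgr5-high array (14.2% of all genes) and 0 below (22.6%). In replicate 2 these were 21 (13.2%) and 0 (25.4%). Replicate 3 had 9 above (16.0%) and 5 below (15.4%), and replicate 4 had 12 above (13.3%) and 1 below (14.8%). The mean over the 34 members was 8.77, 8.66, 8.11 and 8.36 in the 4 Flattop arrays. It ran from 7.69 to 8.20 in Lgr5-high arrays, so replicate 3 lay within that range and the other Flattop arrays above it.

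Replicates 1 and 2 of Flattop and 1 to 3 of Lgr5-high carry numbers from 1 to 8 in their titles, the others numbers from 38 to 46. The labels do not say what these numbers mean. Within titles 1 to 8, 31 members had a positive difference (39.2% of all genes) with a median of 0.68. Within titles 38 to 46 there were 23 (47.4%) with a median of 0.20, and 22 members were positive in both. Ern2 was called within titles 1 to 8 (2.58, limma adjusted p = 0.0301), where 0.347% of all genes were called as higher. Sec24d was called within titles 38 to 46 (2.75, limma adjusted p = 0.0288), where 0.338% were. Neither was called in the other range, Ern2 being at 0.89 there (limma adjusted p = 0.408).

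The difference between ranges was tested as an interaction over all genes. None of the 34 members passed in limma (2 of all genes did, 0.00902%). At an unadjusted p under 0.05, the interaction was negative, a lower value in titles 38 to 46, in 4 members (3.77% of all genes) and positive in 0 (3.62%). Ern2 had an interaction of -1.70 (SE 0.39, limma adjusted p = 0.424), Pdia5 -2.49 (SE 0.70, limma adjusted p = 0.491) and Ern1 -1.13 (SE 0.36, limma adjusted p = 0.558). Hsp90b1 was at -0.67 (SE 0.29, limma adjusted p = 0.673), its difference being 0.31 in titles 1 to 8 and -0.37 in titles 38 to 46. By role, the medians in titles 1 to 8 and 38 to 46 were 1.29 and 0.10 for the isomerases. They were 0.55 and -0.05 for the translocon genes and 0.35 and 0.0 for the chaperones and cochaperones. The sensors and transcription factors were at 0.94 and 0.32, the degradation genes at 0.99 and 0.93 and the 2 COPII genes at 1.0 and 1.06. Among the degradation genes, Edem1 was at 1.85 and 0.76, Syvn1 at 0.88 and 0.13, Sel1l at 1.10 in both and Herpud1 at 0.76 and 1.09. Differences between roles were not tested.

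**Figure D4:**
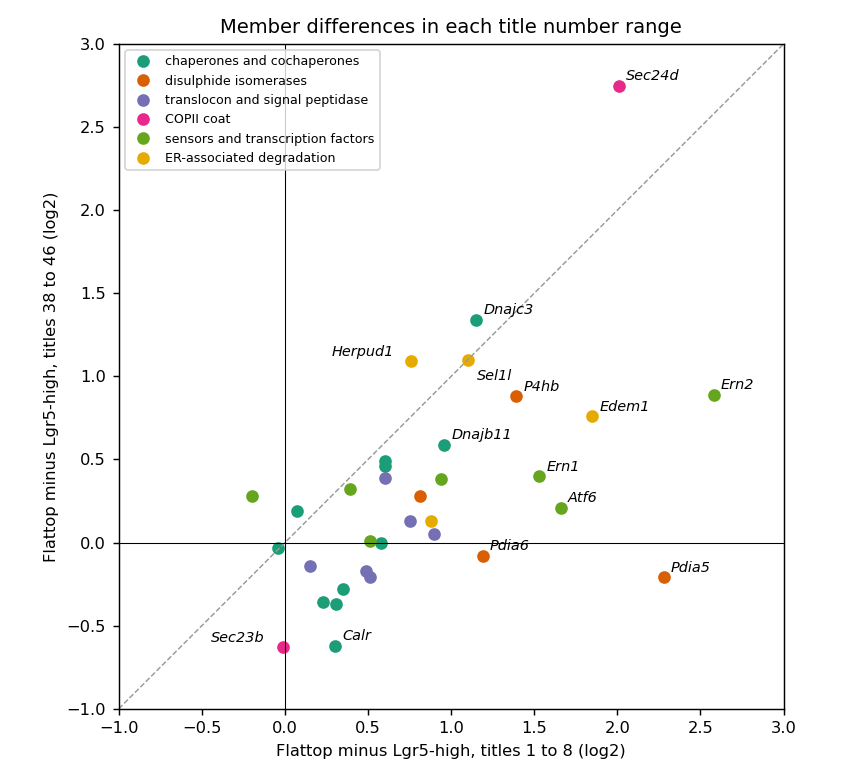
Flattop minus Lgr5-high difference of each member within titles 1 to 8 (horizontal, 2 against 3 arrays) and within titles 38 to 46 (vertical, 2 against 3 arrays), on the log2 scale, coloured by role. The dashed line marks equal differences, and 27 of 34 members lie below it, as would 9485 of all 22180 genes. Ern2, Pdia5 and Atf6 are among those members, while Sec24d lies above the line.

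Beyond the members, 129 other genes of the same pathway were measured from 7 lists. None was called over all genes in limma (0.902% of all genes were called as higher). Without adjustment, 29 were higher (5.98% of all genes) and 1 lower (3.80%) at a p under 0.05. In all, 97 of 129 differences were positive, with a median of 0.34, against 38.5% and -0.06 over all genes, which also stand beside the lists that follow. The folding enzymes had 15 of 21 positive (median 0.36), the other translocon genes 13 of 17 (0.33) and the glycosylation and glycan control genes 12 of 17 (0.36). The other COPII and retrieval genes had 17 of 20 (0.45), the other degradation genes 17 of 20 (0.38) and the other sensors and response factors 13 of 16 (0.37). The integrated stress response list, which holds kinases and targets of the ATF4 arm, was at 10 of 18 with a median of 0.07.

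Among the folding enzymes, the smallest p-values were those of the mucin isomerase Agr2 (0.88, SE 0.23), the oxidase Ero1b (0.74, SE 0.23) and the prolyl isomerase Fkbp11 (1.30, SE 0.44). Of the COPII and exit genes, the inner coat protein Sec23a was at 1.37 (SE 0.34), the cargo receptor Mia3 at 0.71 (SE 0.19) and the outer coat protein Sec31a at 0.81 (SE 0.22). Sec23b, the other form of that coat protein, was at -0.32, and the contrast between the forms was not tested. In the degradation list the lectin Os9 was at 1.49 (SE 0.35), Selenos at 1.77 (SE 0.53) and Edem3 at 0.78 (SE 0.24). The membrane-bound factors Creb3l1, Creb3l2 and Creb3l4 were at 1.35, 0.39 and 1.13, and the stress protein Nupr1, an ATF4 target, at 1.78 (SE 0.37). Nupr1 and Creb3l1 came nearest to the threshold (limma adjusted p = 0.0592 and 0.0658), and both groups stood apart in each.

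Further genes named by smallest p were the stress-response genes Psat1 (0.59, SE 0.18) and Ppp1r15b (0.84, SE 0.34). The oligosaccharyltransferase subunit Ddost was at 0.73 (SE 0.24), the glycoprotein folding sensor Uggt1 at 0.69 (SE 0.28) and the glucosyltransferase Alg5 at 0.48 (SE 0.20). The translocon partner Sec62 was at 1.01 (SE 0.27) and the signal peptidase subunit Spcs3 at 1.06 (SE 0.42). Sec61a2, a second form of the channel pore, was the 1 gene lower at an unadjusted p under 0.05, at -0.80 (SE 0.26). Its limma adjusted p was 0.303, and Sec61a1 was at 0.49.

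Markers of secretory, absorptive and immune cells differed between the same arrays. Goblet markers, Agr2 among them, averaged 11.79, 11.62, 11.16 and 11.20 in Flattop arrays and 9.0 to 10.20 in Lgr5-high arrays. Of these markers 6 of 10 were called as higher. Over all genes 0.902% were called as higher, a share that also stands beside the marker lists that follow. Paneth markers averaged 12.66, 12.21, 11.93 and 12.42 against 8.20 to 9.91, with 6 of 9 called. Enteroendocrine markers (5 of 10 called) averaged 8.10 to 9.23 against 6.97 to 7.42, and enterocyte markers (7 of 10) 9.71 to 11.10 against 6.24 to 7.21. Flattop replicate 1 was the highest array for the members and for goblet, Paneth and enteroendocrine markers, and replicate 4 for enterocyte markers. Within the Lgr5-high group replicate 5 was the highest for the members (8.20) and for goblet (10.20), Paneth (9.91) and enterocyte markers (7.21). Replicate 6 was the highest for enteroendocrine markers (7.42). It was the lowest for the members (7.69) and for Paneth markers (8.20), but only replicate 5 exceeded its goblet mean of 9.66.

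T cell and intraepithelial lymphocyte markers averaged 8.74, 9.28, 11.17 and 10.47 in Flattop replicates 1 to 4. Across the Flattop arrays their order was the reverse of that of the members' mean. These are only 4 arrays, and replicates 1 and 2 also differ from 3 and 4 in title number range. The order cannot be told apart from that range. The 9 plasma cell markers averaged 4.56 to 4.71 in Flattop and 4.64 to 5.05 in Lgr5-high arrays, with 0 called in limma. None had an unadjusted p under 0.05 (5.98% of all genes higher, 3.80% lower). Among them Jchain, the joining chain of secreted antibodies, ran from 3.10 to 3.5 in Flattop and from 3.22 to 4.07 in Lgr5-high arrays, and the ER cochaperone Mzb1 from 4.78 to 5.64 and from 4.83 to 5.47. Mast cell markers averaged 5.08 to 5.54 against 4.0 to 4.37 (3 of 8 called), with a median difference of 0.32. The called genes were Mcpt1 (5.08), Mcpt2 (3.22) and Kit (1.0). The other mast cell markers lay between -0.03 (Hdc) and 0.34 (Cpa3). Crypt base stem cell markers averaged 7.48 to 8.83 against 8.80 to 9.28. All 10 stem cell markers were lower in Flattop, where 38.5% of all genes had a positive difference. Of them 7 were lower at an unadjusted p under 0.05 (3.80% of all genes) and 0 were called in limma (0.0135%). The groups did not overlap, with Flattop lower, in 2 of them (0.974% of all genes). Dissociation response genes averaged 7.73 to 8.56 against 6.78 to 8.41 (0 of 15 called). The part of these cells in the differences of the ER genes was not tested.

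**Figure D5:**
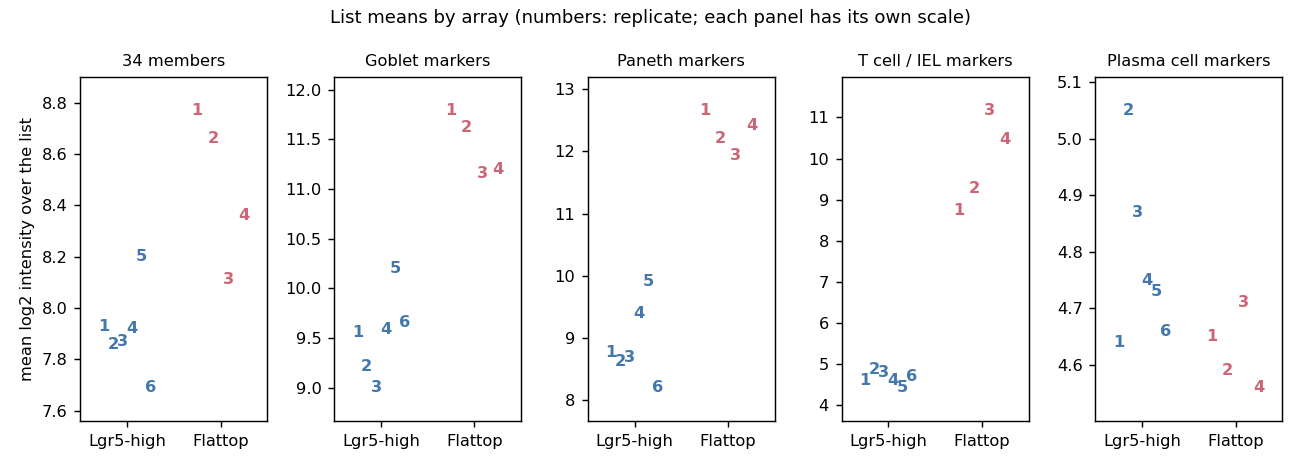
Mean log2 intensity over the 34 members and over 4 marker lists in each array, with the replicate number as the symbol and a scale of its own in each panel. For goblet and Paneth markers all Flattop arrays lie above all Lgr5-high arrays, for the members Flattop replicate 3 (8.11) falls below Lgr5-high replicate 5 (8.20), and plasma cell markers are not higher in Flattop.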

How the data were processed

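The authors deposited log2 intensities of probe sets for 10 arrays (4 Flattop, 6 Lgr5-high). RMA and oligo 1.38.0 are named in the submitters' processing notes, with the settings and any filter not given in the sources used here. Values ran from 2.01 to 14.1, none missing, with array medians of 4.56 to 4.77. Of 41345 probe sets, 23521 had 1 gene symbol, 1814 several and 16010 were not listed. The probe set of highest mean stood for each of 22180 genes, and 4 members had more than 1.

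Groups were compared with limma 3.58.1 (lmFit, eBayes) in R 4.3.3, by a two-sided test tested on simulated data. There the share of false calls was above the threshold of 0.05, and not all of the smaller changes were recovered. P-values were adjusted over all genes after Benjamini and Hochberg, and those under 0.05 were called. Lists are described by counts and medians, without a test. The members and lists were chosen with earlier results of these data known. Values per array are given for called members and the 3 of smallest p in each role, and other pathway genes are named by the 3 smallest p in each list. Deviations of same-numbered replicates correlated at -0.206 to 0.297, highest for replicate 1, and numbers were taken as not pairing arrays. Alternatives were a second quantile normalisation, median centring, removal of dim genes, a trended and robust prior, array weights, the mean of probe sets, blocks for replicate number and title range, each title range alone, each array left out, leaving out in each group the array that correlated least, and a threshold of 0.1. Motifs were searched in RefSeq promoter windows of GRCm38.p6. Plots used matplotlib 3.10.9. Neither detection calls nor background signal were used here. Precision is limited by how many arrays there were.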

Additional observations from a re-analysis of the deposited data

Results flagged for a closer look

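For Hspa5, 1 of the 6 Lgr5-high arrays stood away from the rest of its group. Replicate 6 read 7.54, while the other 5 lay between 8.05 and 8.24, so its gap was 0.723 of the group's range. In 68 groups examined (34 members in both groups) this was the 1 such array, and chance alone marks about 1 group in 20.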

How the results depend on the processing

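The count of 4 called members was 2 after a second quantile normalisation, median centring, with a trended and robust prior and with the title range block, and 1 with the replicate block, within titles 1 to 8, within titles 38 to 46 and without the 2 arrays that correlated least (Flattop replicate 3, Lgr5-high replicate 2). With 1 array left out it was 1 to 3, namely 1 without Lgr5-high replicate 1, 2, 3 or 6 or Flattop replicate 1 or 2, 2 without Lgr5-high replicate 4 or 5 or Flattop replicate 3, and 3 without Flattop replicate 4. Over all genes 203 were called, 57 with the replicate block, 77 and 85 within the title ranges, 311 at a threshold of 0.1 and 123 to 215 with 1 array left out (123 without Flattop replicate 2, 132 without Lgr5-high replicate 4). Replicate numbers were taken as not pairing the arrays, and the labels do not say whether they do. Flattop replicate 1 deviated most like Lgr5-high replicate 1 (correlation 0.297), while Flattop replicates 2, 3 and 4 deviated most like an array of another number. Positive differences numbered 25 to 33 of 34 members over the alternatives run on all titles. The members' median difference was 0.20 within titles 38 to 46, and otherwise 0.37 to 0.68. Of the other pathway genes 0 were called, but 2 with dim genes left out, with array weights, without the least correlated arrays and at a threshold of 0.1, 1 with a trended and robust prior, and 0 to 2 with 1 array left out. No member's interaction with the title range passed in any alternative run.

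Sec24d kept its call in 20 of 21 alternatives, Ern2 in 9, Dnajc3 in 6 and Dnajb11 in 2, and all 4 differences stayed positive. Some members changed sign, none of them called. Most of these were near 0 in the main fit, but Pdia5 was at 1.03 and Pdia6 at 0.55. After a second quantile normalisation Manf was at -0.01, Canx at -0.13, Sec61b at -0.12 and Atf4 at -0.13. With array weights Hsp90b1 was at 0.04, Dnajb9 at 0.13 and Creld2 at 0.02. With the replicate block Dnajb9 was at 0.05, Creld2 at 0.02, Sec61b at -0.10 and Atf4 at -0.11. Within titles 1 to 8 Hsp90b1 was at 0.31, Creld2 at 0.23, Calr at 0.30 and Atf4 at -0.20. Within titles 38 to 46 Canx was at -0.28, Pdia5 at -0.21, Pdia6 at -0.08, Sec61b at -0.14, Ssr1 at -0.21 and Ssr2 at -0.17. Without the 2 arrays that correlated least Hsp90b1 was at 0.15, Dnajb9 at 0.50, Creld2 at 0.24 and Calr at 0.24. With 1 array left out the ranges were -0.13 to 0.15 for Hsp90b1, -0.28 to 0.31 for Dnajb9, -0.22 to 0.22 for Creld2, -0.06 to 0.17 for Canx, -0.38 to 0.19 for Calr, -0.23 to 0.33 for Sec61b, -0.03 to 0.37 for Ssr2 and -0.10 to 0.27 for Atf4. The cause was not tested.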
